A study of Rattus norvegicus with 4 samples.

Results

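A set of 8 genes that make, break down or feed the polyamines were followed through 4 arrays of rat soleus: Slc25a15, Odc1, Azin1, Amd1, Srm, Sms, Sat1 and Smox. All 8 were found by their transcript accession, on 11 probes and 27 spots, among 26633 genes and transcripts on the array. They were chosen by values of these same arrays: Slc25a15 for its signal in regenerated overloaded muscle, and the other 7 as polyamine genes whose levels were already known, so all values below are descriptions and no test was run on them. The study asked how an earlier injury and regeneration bear on the growth of a muscle under load. The groups were regenerated muscle after overloading (rats aged 18 weeks), hypertrophied muscle, called overloaded here (18 weeks), regenerated muscle collected 8 weeks after CTX, an injected agent that the labels do not spell out (16 weeks), and normal muscle (16 weeks). All rats were male, no strain is named, and the means of overloading is not given. The sample titles mark both regenerated pools L and both uninjured pools R without spelling the letters out, so that mark and injury cannot be told apart, and whether L and R muscles came from the same rats is not given. For each group RNA of 6 muscles was mixed in equal amounts and put on 1 array, so n = 1 throughout. The errors given are technical, from the spread between repeated spots, pooled over probes of like signal on an array. A probe of 1 spot thus takes its error from other probes.

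The polyamines putrescine, spermidine and spermine are small, positively charged molecules that bind RNA and DNA and that growing cells need for translation. Ornithine is decarboxylated to putrescine, and aminopropyl groups from decarboxylated S-adenosylmethionine then turn putrescine into spermidine and spermidine into spermine. Acetylation and oxidation run the pathway backwards or send polyamines out of the cell. Several of the enzymes are short-lived proteins controlled at translation and by degradation, so that an mRNA level does not give the amount of enzyme.

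Spots flagged as well above background made up 68.1% of the regenerated overloaded array, 70.6% of the overloaded, 68.9% of the regenerated and 60.4% of the normal array, where the detection limit, the lowest signal with that flag, was highest. All 4 arrays lay on 1 slide, both overloaded groups in its second row and the other groups in its first row, so slide row, age and overload cannot be told apart. All 8 slow fibre markers, such as Myh7 and Tnni1, were well above background on every array; slow fibres make up most of the rat soleus. A difference of 2-fold or more between arrays is the limit used throughout, the scaled signal is the processed signal after each array was set to the same 75th percentile, and the 4 comparisons share arrays with each other. Where arrays are said to overlap or not, their spots are meant, which repeat 1 pooled RNA. The share of all genes without such overlap was not counted.

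Promoters of 7 of the 8 genes were matched in the RefSeq table of build GRCr8, from 250 bases before to 50 after the annotated start; Azin1 had no entry. Those of the 4 genes on which the results turn are printed so that they can be set side by side. Slc25a15 lies at chr16:76336620-76336919 (plus strand), Odc1 at chr6:46058415-46058714 (plus), Amd1 at chr20:45265933-45266232 (minus) and Sat1 at chrX:44007839-44008138 (plus), each written along the gene's own strand. Capitals mark matches, on either strand, to the GC box GGGCGG bound by Sp1 family factors, to the TATA box core TATAAA and to the E-box CACGTG bound by Myc and Max.
Slc25a15: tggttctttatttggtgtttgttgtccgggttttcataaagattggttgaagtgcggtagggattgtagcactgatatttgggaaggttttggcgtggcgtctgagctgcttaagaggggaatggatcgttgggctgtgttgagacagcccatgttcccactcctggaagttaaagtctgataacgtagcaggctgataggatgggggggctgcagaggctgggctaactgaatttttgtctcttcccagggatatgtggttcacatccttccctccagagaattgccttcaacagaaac
Odc1: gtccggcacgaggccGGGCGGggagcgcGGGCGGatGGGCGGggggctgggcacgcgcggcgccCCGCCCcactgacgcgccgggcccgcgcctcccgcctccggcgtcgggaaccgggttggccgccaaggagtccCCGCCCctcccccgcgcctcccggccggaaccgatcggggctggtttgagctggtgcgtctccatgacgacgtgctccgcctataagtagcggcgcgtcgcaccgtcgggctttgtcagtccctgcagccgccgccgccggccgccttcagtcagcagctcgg
Amd1: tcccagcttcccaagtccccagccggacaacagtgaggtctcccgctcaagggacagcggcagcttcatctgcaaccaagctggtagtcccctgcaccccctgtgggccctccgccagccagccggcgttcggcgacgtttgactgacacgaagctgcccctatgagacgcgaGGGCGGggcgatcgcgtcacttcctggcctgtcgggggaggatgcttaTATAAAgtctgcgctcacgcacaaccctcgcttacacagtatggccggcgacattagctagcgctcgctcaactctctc
Sat1: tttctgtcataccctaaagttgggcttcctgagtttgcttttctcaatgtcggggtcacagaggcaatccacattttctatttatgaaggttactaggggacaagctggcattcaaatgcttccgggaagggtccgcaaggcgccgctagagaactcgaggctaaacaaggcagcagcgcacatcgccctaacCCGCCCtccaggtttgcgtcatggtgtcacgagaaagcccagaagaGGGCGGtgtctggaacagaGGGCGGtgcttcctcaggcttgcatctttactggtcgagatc
The GC box was found 5 times for Odc1, 3 times for Sat1 and once for Amd1, at position -77 from the start, and these letters were not in the Slc25a15 window. In all, 5 of the 7 promoters held it, against 33.1% of 33469 rat promoters of the same length. TATAAA was found for Amd1 alone, at position -29 (14.2% of all promoters), and CACGTG for Srm alone, at position -173 (6.42% of all promoters). A match is a run of letters and not evidence of a bound factor.

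Slc25a15, the carrier that exchanges ornithine for citrulline across the inner mitochondrial membrane, was above background in regenerated overloaded muscle alone. Its only probe (A_64_P104905) had scaled signals of 152 and 65.2 intensity units on the 2 spots of the regenerated overloaded array, 3.60 and 3.37 for overloaded muscle, 3.86 and 6.24 for regenerated muscle and 7.76 and 7.44 for normal muscle. Both spots of the first array were well above background and none of the other 6 was, so the order of those 6 is not read. The signal was at least 6.04-fold higher in regenerated overloaded than in regenerated muscle, where 2% of 17187 measured genes differed 2-fold or more (1.55% higher and 0.448% lower). Against overloaded muscle it was at least 6.95-fold higher, where 1.72% of 17475 genes differed (1.02% higher and 0.692% lower). These are bounds taken at the detection limit of the dimmer array, because Slc25a15 itself lay under it there. Between overloaded and normal and between regenerated and normal muscle it was not well above background on either array, and no fold is given.

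The 2 bright spots disagreed by 2.33-fold, a log2 gap of 1.22. Among 1344 other probes of 2 spots and like level on that array the median gap was 0.11, and 99.1% had a smaller one. From the dimmer spot alone the bounds were 3.96-fold against regenerated and 4.55-fold against overloaded muscle. Under normexp, a background correction that pulls low intensities towards each other, they were 2.27-fold and 2.20-fold. Of the 75 spots within 4 rows and columns of each Slc25a15 spot, 2 and 1 were, like it, above background on the regenerated overloaded array alone. The share of all spots on the array that were so was not counted. By their brightest probe 152 of 26633 genes were so. The neighbouring spots above background on all arrays, 43 and 39, had median log2 differences of -0.05 and -0.10 between the regenerated overloaded array and the mean of the others. The part of a local fault in the 2 bright spots was not tested.

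Other genes were also above background on 1 array alone: 152 on the regenerated overloaded array, 542 on the overloaded, 258 on the regenerated and 37 on the normal array. Of the 152, 16 were at least 2-fold over each of the other arrays, and Slc25a15 was the seventh of these by its smallest bound, 3.17-fold, which was that against normal muscle. By the distance between 4 centred log2 levels, with dim levels set to the detection limit, the 5 genes nearest to Slc25a15 among 10915 were Jpt2l1, Zfp319, Clec2d2l2, Lrrc15 and Tas2r104. For Slc25a15 all levels but that of the regenerated overloaded array are detection limits, so the likeness rests mostly on those limits and no distance is given. Of these genes only Lrrc15 was read from more than 1 spot.

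**Figure D1:**
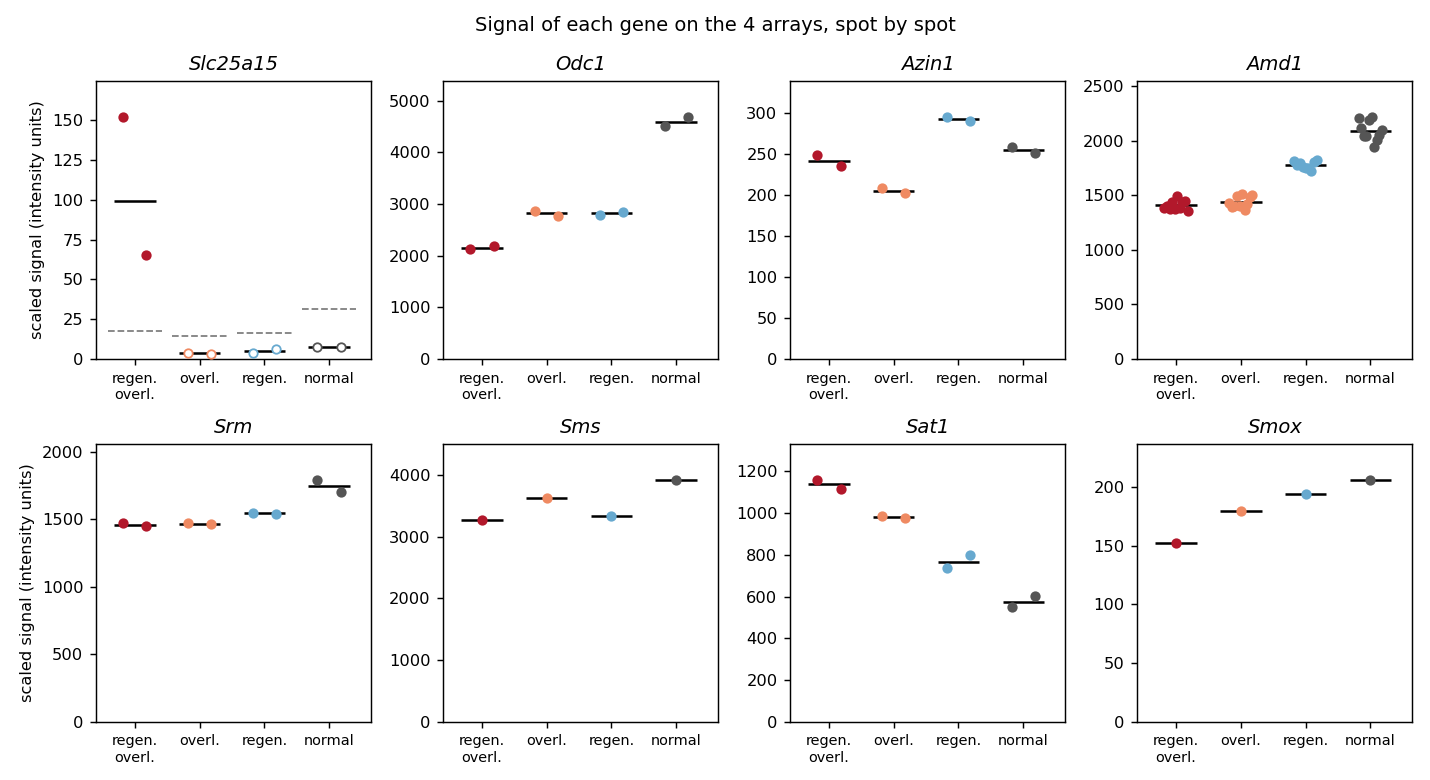
Scaled signal in intensity units (vertical axes, each from 0) of the 8 genes on the regenerated overloaded, overloaded, regenerated and normal arrays, 1 pooled RNA each. Points are single spots of the brightest probe (open where not well above background), black lines their geometric mean, and grey dashes for Slc25a15 the detection limit of each array. Odc1 is lowest and Sat1 highest on the regenerated overloaded array, and Slc25a15 is above background there alone.

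Odc1, ornithine decarboxylase, which makes putrescine from ornithine at the first committed step, was lowest in the muscle that had been both injured and loaded. Its scaled signal was 2133 and 2178 intensity units on the spots of the regenerated overloaded array, 2867 and 2770 for overloaded, 2787 and 2847 for regenerated and 4513 and 4677 for normal muscle. Normal muscle stood apart above the rest, regenerated overloaded muscle below, and the overloaded and regenerated arrays overlapped. The log2 difference was -0.71 (technical SE 0.055) in overloaded against normal muscle and likewise -0.71 (technical SE 0.055) in regenerated against normal muscle. All genes above background on both arrays had medians of -0.12 and -0.11 in those comparisons, and Odc1 lay at percentiles 1.79 and 1.30 among them. It was -0.39 (technical SE 0.055) both in regenerated overloaded against regenerated and in regenerated overloaded against overloaded muscle. None of these passed 2-fold. With 4 other scalings and corrections included, the 2 differences from normal muscle ranged from -0.71 to -0.53 and from -0.71 to -0.57.

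A further comparison, of regenerated overloaded with normal muscle, was added after the values had been seen. There Odc1 was 2.13-fold lower (log2 difference -1.09, technical SE 0.054), in a comparison where 6.12% of 16596 genes differed 2-fold or more, 4.64% higher and 1.48% lower. It was under 2-fold with quantile normalization, cyclic loess, normexp and the authors' scaling, the smallest of these being -0.91. Slc25a15 was the other of the 8 genes past 2-fold there.

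Azin1, the antizyme inhibitor that resembles ornithine decarboxylase, lacks its activity and frees it from antizyme, was slightly higher in the injured and slightly lower in the loaded muscle of each comparison. Its scaled signal averaged 241 intensity units in regenerated overloaded, 205 in overloaded, 292 in regenerated and 255 in normal muscle, with 2 spots on each array that lay close together and did not overlap between arrays. Against overloaded muscle, regenerated overloaded muscle was higher (log2 difference 0.24, technical SE 0.093), and so was regenerated against normal muscle (0.19, technical SE 0.098). It was lower in regenerated overloaded than in regenerated muscle (-0.27, technical SE 0.078) and in overloaded than in normal muscle (-0.31, technical SE 0.11). All 4 differences were well under 2-fold, and that of regenerated from normal muscle lay within 2 technical SE of 0. With 4 other scalings and corrections included, regenerated against normal muscle ranged from 0.09 to 0.33. Overloaded against normal muscle ranged from -0.38 to -0.14.

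Amd1, S-adenosylmethionine decarboxylase, which supplies the aminopropyl groups, was lower in both loaded muscles. Over its 10 spots the scaled signal ran from 1357 to 1492 intensity units on the regenerated overloaded array, from 1364 to 1510 on the overloaded array, from 1717 to 1818 on the regenerated array (9 spots) and from 1943 to 2213 on the normal array. The 2 loaded arrays overlapped, and the kept spots of the regenerated and normal arrays stood above them and apart from each other. The regenerated spot left out as an outlier was at 1995, inside the range of the normal array. The log2 difference was -0.54 (technical SE 0.025) in overloaded against normal muscle, -0.34 (technical SE 0.026) in regenerated overloaded against regenerated muscle, -0.23 (technical SE 0.026) in regenerated against normal muscle and -0.03 (technical SE 0.025) in regenerated overloaded against overloaded muscle, the last reaching 0.0012 with quantile normalization. With 10 spots this is the best measured of the 8 genes, and still on 1 array a group.

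The aminopropyl transferases differed less. Srm, spermidine synthase, averaged 1461 intensity units in regenerated overloaded, 1467 in overloaded, 1543 in regenerated and 1746 in normal muscle on its brighter probe. Its 2 differences from normal muscle, -0.25 and -0.18 on the log2 scale, lay -0.13 and -0.07 from the medians of all genes, and its second probe gave -0.26 and -0.25. Sms, spermine synthase, gave 3263 intensity units in regenerated overloaded, 3627 in overloaded, 3326 in regenerated and 3917 in normal muscle on the single spot of its brightest probe. Its 3 probes ranged from -0.11 to 0.03 in overloaded against normal muscle and from -0.29 to -0.21 in regenerated against normal muscle on the log2 scale. Neither gene reached 2-fold in any comparison, and in overloaded against normal muscle the brightest Sms probe turned positive with quantile normalization, cyclic loess and the authors' scaling, at most to 0.06.

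Sat1, spermidine/spermine N1-acetyltransferase, the enzyme that tags polyamines for export or for conversion back to shorter ones, ran opposite to Odc1. Its scaled signal was 1159 and 1118 intensity units on the spots of the regenerated overloaded array, 984 and 975 for overloaded, 736 and 798 for regenerated and 549 and 604 for normal muscle. The spots of the 4 arrays did not overlap, with regenerated overloaded muscle highest and normal muscle lowest. The log2 difference was 0.77 (technical SE 0.064, 1.70-fold) in overloaded against normal muscle, at percentile 95.6 of all genes, and 0.41 (technical SE 0.069) in regenerated against normal muscle, at percentile 90.7. It was 0.57 (technical SE 0.062) in regenerated overloaded against regenerated muscle, at percentile 96.0, and 0.22 (technical SE 0.057) in regenerated overloaded against overloaded muscle. Against normal muscle the regenerated overloaded array was 0.98 higher on the log2 scale, just under 2-fold, and past it with cyclic loess and with the authors' scaling (1.16).

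Smox, spermine oxidase, which turns spermine back into spermidine and is known in mice to fall in wasting muscle, had a single spot. It gave 152 intensity units in regenerated overloaded, 180 in overloaded, 194 in regenerated and 206 in normal muscle. The log2 differences were -0.35 (technical SE 0.13) in regenerated overloaded against regenerated muscle, -0.24 (technical SE 0.14) in regenerated overloaded against overloaded muscle, -0.20 (technical SE 0.16) in overloaded against normal muscle and -0.08 (technical SE 0.15) in regenerated against normal muscle. All but the first of these lay within 2 technical SE of 0, and the last turned to 0.05 with the authors' scaling.

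**Figure D2:**
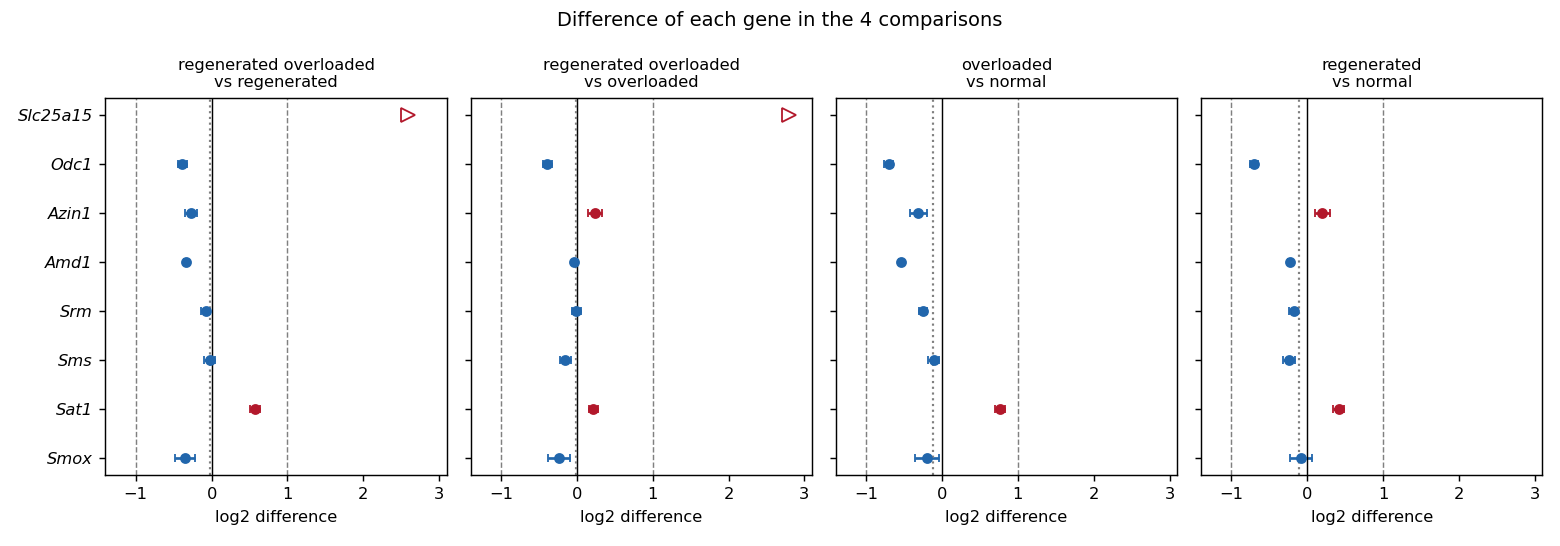
Log2 difference (horizontal axes) of each of the 8 genes in the 4 comparisons, positive where the first-named muscle was higher; points are measured differences with bars of 1 technical SE, open triangles at-least values, dashes the 2-fold limits and dots the median of all genes. Odc1 lies left of 0 and Sat1 right of 0 in all 4, and Slc25a15 alone is past 2-fold.

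Read across the set, 1 of 8 measured genes was past 2-fold in regenerated overloaded against regenerated muscle (2% of all genes) and 1 of 8 in regenerated overloaded against overloaded muscle (1.72% of all genes). In both cases it was Slc25a15, which was chosen for its signal on that array and counts as measured only through it, so nothing is read from these counts. None of 7 was past it in overloaded against normal muscle, where 3.2% of 17288 genes were (2.46% higher and 0.74% lower), and none of 7 in regenerated against normal muscle, where 1.92% of 16892 were (1.27% higher and 0.651% lower). The 7 genes measured on both arrays had a median log2 difference of -0.27 in regenerated overloaded against regenerated muscle (all genes -0.02), -0.03 in regenerated overloaded against overloaded (all genes -0.01), -0.25 in overloaded against normal (all genes -0.12) and -0.18 in regenerated against normal muscle (all genes -0.11).

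The overload values of regenerated and of uninjured muscle were set against each other as a difference of differences (regenerated overloaded over regenerated, less overloaded over normal) for the 7 genes above background on all arrays. It was 0.32 (technical SE 0.078) for Odc1, 0.20 (technical SE 0.036) for Amd1, 0.17 (technical SE 0.081) for Srm and -0.20 (technical SE 0.089) for Sat1 on the log2 scale. Over all genes the median absolute value was 0.175, so those of Amd1, Srm and Sat1 were near the usual size, and that of Sat1 was -0.053 with normexp. Azin1 (0.04), Sms (0.08) and Smox (-0.15) lay within 1 technical SE of 0. None of the 7 passed 2-fold, while 0.757% of 14392 genes did and the median of all was 0.07. With the authors' scaling the value of Odc1 was 0.19, that of Amd1 0.073 and that of Srm 0.042.

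Of 21 further genes of the polyamine pathway 16 were on the array, 13 of them above background on some array, and none passed 2-fold in any of the 4 comparisons. With 1.72% to 3.2% of all genes past it, a count of 0 among 13 is near the background. Slc3a2, the heavy chain of several amino acid transporters, named after its values were seen, was at -0.55 in regenerated overloaded against regenerated, -0.27 in regenerated overloaded against overloaded, -0.56 in overloaded against normal and -0.28 in regenerated against normal muscle. The antizymes Oaz1 and Oaz2, which bind ornithine decarboxylase and send it to the proteasome, were lower in overloaded than in normal muscle by log2 differences of -0.32 and -0.26. Eif5a, the translation factor that carries hypusine made from spermidine, was at -0.23 there, and Dohh, the second enzyme of that modification, at -0.28. The list's median was -0.14 in regenerated overloaded against regenerated muscle (all genes -0.02), -0.08 in regenerated overloaded against overloaded (all genes -0.01), -0.26 in overloaded against normal (all genes -0.12) and -0.12 in regenerated against normal muscle (all genes -0.11).

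Upstream of ornithine, 1 gene passed 2-fold. Arg1, the arginase that splits arginine into urea and ornithine and is known in mouse macrophages, gave 273 intensity units in regenerated overloaded, 238 in overloaded, 141 in regenerated and 95.1 in normal muscle, over 10 spots an array. It was 2.51-fold higher in overloaded than in normal muscle (log2 difference 1.33, technical SE 0.070), the only 1 of 12 measured genes of ornithine, arginine and proline metabolism past 2-fold there (3.2% of all genes). It was at 0.88 on the log2 scale with normexp and at 0.90 by the smallest difference between spots, both under 2-fold. In regenerated overloaded against regenerated muscle it was at 0.95 (technical SE 0.039). Oat, ornithine aminotransferase, was at -0.05 in overloaded against normal muscle, Glud1, glutamate dehydrogenase, at -0.21, Gamt, which methylates guanidinoacetate to creatine, at -0.05 and Asl, argininosuccinate lyase, at 0.04. Otc and Cps1, mitochondrial enzymes of the urea cycle in liver, were not well above background on any array, nor was Slc25a2, the second ornithine carrier.

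Of 18 other Slc25 carriers on the array, all were above background on some array and none passed 2-fold in the 4 comparisons, a count near the background of 1.72% to 3.2% of all genes. The 4 brightest were lower in overloaded than in normal muscle. Slc25a4, the muscle ADP/ATP carrier, was at -0.47 in overloaded against normal muscle, Slc25a5, another ADP/ATP carrier, at -0.45, Slc25a3, the phosphate carrier, at -0.50 and Slc25a11, the oxoglutarate carrier, at -0.49. Slc25a24, a calcium-dependent ATP-magnesium/phosphate carrier named after its values were seen, was instead higher, by 0.73 in overloaded against normal and 0.51 in regenerated overloaded against regenerated muscle. The family's median was -0.23 in regenerated overloaded against regenerated (all genes -0.02), -0.13 in regenerated overloaded against overloaded (all genes -0.01), -0.45 in overloaded against normal (all genes -0.12) and -0.33 in regenerated against normal muscle (all genes -0.11).

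Odc1 is a known target of Myc, and the list of Myc and ribosome biogenesis genes was set beside it. None of its 14 measured genes passed 2-fold in any of the 4 comparisons (1.72% to 3.2% of all genes did), and its median was -0.23 in regenerated overloaded against regenerated, -0.01 in regenerated overloaded against overloaded, -0.17 in overloaded against normal and -0.09 in regenerated against normal muscle. Myc itself gave 181 intensity units in regenerated overloaded, 188 in overloaded, 249 in regenerated and 168 in normal muscle. In regenerated against normal muscle Myc was at 0.57 (technical SE 0.045) and Odc1 at -0.71. In overloaded against normal muscle Myc was at 0.17 and Odc1 at -0.71. Both were lower in regenerated overloaded than in regenerated muscle, Myc at -0.46 and Odc1 at -0.39. In regenerated overloaded against overloaded muscle Myc was at -0.06 and Odc1 at -0.39. The part of Myc in the level of Odc1 was not tested. Npm1, Fbl, Nop56 and Ncl, nucleolar proteins of ribosome assembly, lay between -0.38 and -0.08 in overloaded against normal muscle. The 5 genes whose 4 levels lay nearest to those of Odc1 were Slc38a4, an amino acid transporter (distance 0.058), Rhpn2 (0.088, not well above background on the regenerated overloaded array), Hdhd3 (0.090), Trpt1 (0.092) and Tmem120b (0.097), and Amd1 was the nearest polyamine gene, at 0.43 and rank 1256 of 10915.

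**Figure D3:**
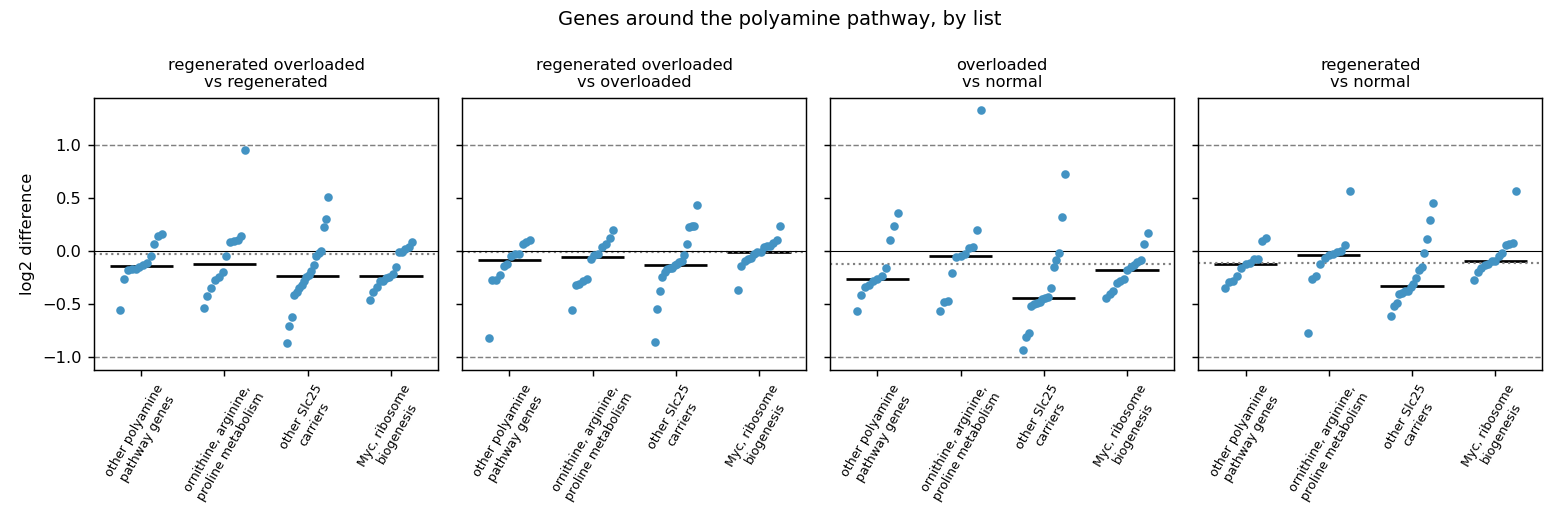
Log2 difference (vertical axes) of single genes, as points, in 4 lists around the polyamine genes, for each comparison and for genes above background on both arrays; black lines are list medians, dots the median of all genes and dashes the 2-fold limits. Arg1, at 1.33 in overloaded against normal muscle, is the only point past 2-fold.

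Summed macrophage and fibroblast markers put the 4 arrays in the order of Sat1 and Arg1, and summed endothelial and adipocyte markers did not. The summed scaled signal of 8 macrophage markers, all above background on every array, was 38264 intensity units in regenerated overloaded, 35089 in overloaded, 33035 in regenerated and 21104 in normal muscle. Lyz2 supplied most of it, with 33742 in regenerated overloaded and 18720 in normal muscle. Past 2-fold higher were Cd68 and Adgre1 in overloaded against normal muscle and Cd68 in regenerated against normal muscle, while Itgam was lower in both, at -0.47 and -0.25. The summed signal of 6 fibroblast markers was 154281 in regenerated overloaded, 122457 in overloaded, 90579 in regenerated and 44319 in normal muscle, with Thy1 and Osr1 not well above background in normal muscle. The collagen genes Col1a1 and Col3a1 supplied most of it in regenerated overloaded muscle, with 57846 and 63785. Past 2-fold higher were Col1a1, Col3a1 and Thy1 in overloaded against normal muscle, Col1a1, Col3a1 and Osr1 in regenerated against normal muscle, and Col1a1 and Thy1 in regenerated overloaded against regenerated muscle. The 8 slow fibre markers summed to less on each treated array, 1401680 in regenerated overloaded, 1480069 in overloaded and 1557119 in regenerated muscle, against 1828175 in normal muscle. The summed macrophage and fibroblast signals thus put the arrays in the order of Sat1, and the slow fibre sum was highest in normal and lowest in regenerated overloaded muscle, as Odc1 was. Single markers broke these orders, among them Csf1r (323 in regenerated overloaded and 370 in overloaded muscle), Cd68, Itgam, Dcn, Osr1 and, among slow fibre genes, Tnnt1. In a bulk sample, fewer cells of a type and less RNA per cell cannot be told apart, and the part of these cells in the values of Sat1, Arg1 and Odc1 was not tested. Of the 4 lymphocyte markers on the array, Cd3e, Cd2 and Cd79b were not well above background on any array. Cd8a was so on the regenerated overloaded array alone, at 24.3 intensity units, at least 1.48-fold over regenerated and over overloaded muscle. The detection limit of the normal array, 31.4, lay above that signal, so no fold is given against normal muscle.

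Markers of dividing cells were higher in both loaded muscles, where Amd1 was lower. The 5 proliferation markers on the array summed to 874 intensity units in regenerated overloaded, 940 in overloaded, 435 in regenerated and 385 in normal muscle, where Ccna2, Ccnb1 and Birc5 were not well above background. Ccna2, Cdk1 and Birc5 were past 2-fold higher in overloaded against normal and in regenerated overloaded against regenerated muscle. Slc25a15 was not above background in overloaded muscle, where that sum was highest. The part of dividing cells in the values of Slc25a15 and Amd1 was not tested. Endothelial markers ranged from 7385 to 7972 over the 4 arrays, and the adipocyte markers summed to 16269 in regenerated overloaded, 11480 in overloaded, 17128 in regenerated and 7936 in normal muscle, with Lep not above background on any array. Cfd supplied most of that sum and was past 2-fold higher in regenerated against normal muscle, while Adipoq was lower in overloaded than in normal muscle, with 753 against 911 intensity units.

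**Figure D4:**
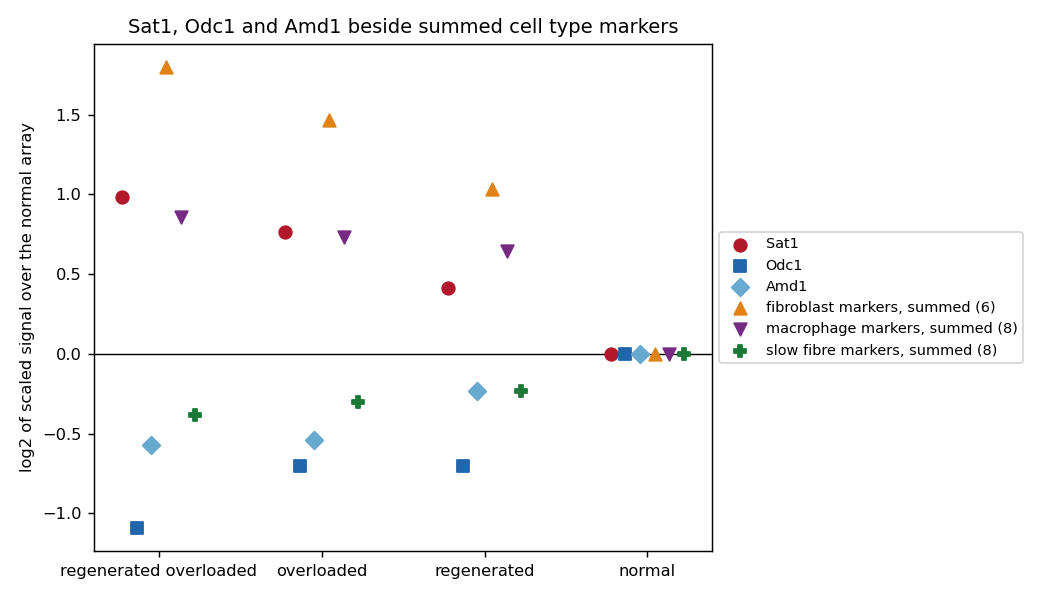
Log2 of the scaled signal over that of the normal array (vertical axis) for Sat1, Odc1 and Amd1 and for the summed signal of 6 fibroblast, 8 macrophage and 8 slow fibre markers on the 4 arrays, 1 point an array with no error shown. Sat1 lies above 0 with the fibroblast and macrophage sums on all treated arrays, and Odc1 and Amd1 lie below 0 with the slow fibre sum.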

How the data were processed

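Gene expression was measured on 4 one-colour Agilent arrays, 1 per group. Per the labels' protocols, Isogen was used to extract the RNA and an Agilent low-input kit to label it with Cy3. The deposited scanner files give a processed intensity per spot, background-subtracted by the scanner software and not scaled between arrays, with a median intensity, a local background and flags; Feature Extraction was version 11.5.1.1 per the file headers and 10.10.1.1 per the submitters' processing notes. The authors' series table holds the same intensity times 1 constant per array (2.02, 1.95, 2.10 and 2.14 for regenerated overloaded, overloaded, regenerated and normal muscle); it is linear and not centred, and how the constant was chosen is unknown.

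Of 58717 probe spots per array, between 406 and 451 flagged as outliers were left out, and none was saturated. Each array's log2 processed signals were centred on their 75th percentile; repeated spots were then averaged, and the brightest probe stood for its gene; scaled signals are brought back to the mean 75th percentile, 749.8 intensity units. A probe was above background where all its kept spots were flagged so, and a gene was measured where that held on at least 1 of 2 arrays; otherwise the dimmer side was set at the lowest signal called well above background. Technical SEs come from the SD between spots, pooled in 20 bins of signal. The number of arrays limits the precision. With 1 array a group no test was run. The steps were checked on simulated spots. Probe accessions were named through the GRCr8 gene table (18643 of 30367 probes, 15637 symbols). The array design names build rn4, so gene coordinates are given for promoters alone.

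The rule for named genes takes all 8 members, list genes past 2-fold, up to 4 of the brightest in each pathway list, and the 5 nearest in pattern to Slc25a15 and Odc1. Other genes named, such as Myc, Slc3a2, Slc25a24, Otc, Cps1, Slc25a2 and single markers, fall outside it and were chosen after their values were seen. Members, lists and rules were chosen with earlier results of these data known. Alternatives were quantile and cyclic loess scaling, normexp (offset 50) with limma 3.58.1 in R 4.3.3, the authors' table, the mean over probes, other filters, spots without the outer 16 rows, and the smallest difference between spots. Python 3.11.15, numpy 2.4.6 and pandas 2.3.3 were used.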

Additional observations from a re-analysis of the deposited data

How the results depend on the processing

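Slc25a15 kept its direction and stayed past 2-fold in both comparisons of regenerated overloaded muscle under every alternative that gives it a value, with log2 bounds between 1.18 and 2.69 against regenerated and between 1.14 and 2.83 against overloaded muscle where a floor was set. Where both arrays had to be above background it is not measured, and the counts of genes past 2-fold were 0 in both. Without filter and floor the count was 1 in overloaded against normal muscle, Slc25a15 at background on both arrays. In the added comparison with normal muscle the count of 2 was 1 with quantile normalization, 1 with normexp and 1 with both arrays above background; with cyclic loess and the authors' table it was 2, with Sat1 in place of Odc1. Odc1 was lower and Sat1 higher in all 4 comparisons under all 9 alternatives, and no gene's call reversed. The counts over all genes fell to 102, 61, 212, 116 and 456 with normexp, against 343, 300, 554, 325 and 1016, for regenerated overloaded against regenerated, regenerated overloaded against overloaded, overloaded against normal, regenerated against normal and regenerated overloaded against normal muscle. Without filter and floor they were 1460, 1438, 5698, 2209 and 2953, and with both arrays above background 225, 143, 372, 196 and 747. With the authors' table the calls in overloaded against normal muscle split into 720 higher and 82 lower genes, against 426 and 128, and in regenerated against normal muscle into 332 and 90, against 215 and 110; for regenerated overloaded against normal muscle it was 1172 and 145, against 770 and 246. Sms changed sign in overloaded against normal muscle with quantile normalization, cyclic loess and the authors' table, and in regenerated overloaded against regenerated muscle with cyclic loess, the authors' table and the mean over probes. The median of all genes in overloaded against normal muscle was -0.12, and 0.05 with the authors' table; relative to it Odc1 lay between -0.58 and -0.46 and Sat1 between 0.66 and 0.89.

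The difference of differences was 0.19 for Odc1 with quantile normalization and 0.19 with the authors' table, 0.073 for Amd1 and 0.042 for Srm with the authors' table. For Sms it was -0.064 with quantile normalization, -0.028 with cyclic loess and -0.046 with the authors' table. For Sat1 it was -0.053 with normexp and -0.33 with the authors' table. The cause of these shifts was not tested. No replicate could be left out with 1 array a group. No paired analysis was possible because each group has 1 pooled sample, and the labels do not say whether pools share rats. Signals near background, those of Slc25a15 outside regenerated overloaded muscle, limit what can be read.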

Other observations

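In the added comparison of regenerated overloaded with normal muscle, 3 genes of the lists were past 2-fold lower that were not so in the other 4 comparisons, and are named after their values were seen. Slc25a25, a calcium-dependent ATP-magnesium/phosphate carrier, gave 1829 intensity units in regenerated overloaded and 4546 in normal muscle over 10 spots (2.49-fold lower, log2 difference -1.31, technical SE 0.024), and stayed past 2-fold under all 9 alternatives. Slc25a33, a pyrimidine nucleotide carrier, gave 363 intensity units in regenerated overloaded and 781 in normal muscle on 1 spot (log2 difference -1.11, technical SE 0.10), and Prodh, which oxidises proline, gave 512 in regenerated overloaded and 1110 in normal muscle on 1 spot (-1.12, technical SE 0.094). Both were under 2-fold with normexp and with the authors' scaling, at -0.93 at the least. Arg1 was 2.87-fold higher there (log2 difference 1.52, technical SE 0.069) and stayed past 2-fold under all 9 alternatives, the lowest 1.03. The share of all genes past 2-fold in that comparison was 6.12%, 4.64% higher and 1.48% lower. Of the 18 other Slc25 carriers measured there, 2 were past 2-fold lower and 0 higher. Of the 12 measured genes of ornithine, arginine and proline metabolism, 1 was past 2-fold lower and 1 higher.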
